A study of Mus musculus with 8 samples.

Results

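The 10 genes described here mark or control whether a cell is epithelial or mesenchymal, and they were chosen by name from the 21951 protein-coding genes of the GENCODE M21 mouse annotation. They are the epithelial adhesion genes Cdh1 and Epcam, the mesenchymal structural genes Cdh2 and Vim, and the transcription factor genes Snai1, Snai2, Zeb1, Zeb2, Twist1 and Twist2. Every cytosine that had 10 or more reads in all 8 libraries and lay inside one of these genes, or within 2000 bp upstream, was taken. This gave 448 cytosines, of which 2 were left out for very high coverage, so that 446 of the 563551 cytosines kept across the genome belong to the 10 genes. In all, 2196 cytosines there were listed in 1 or more of the 8 libraries, so most were not read deeply enough in every library to be compared.

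DNA methylation was measured by reduced representation bisulfite sequencing (RRBS), which reads the CpG-rich fragments of a digested genome and scores each cytosine as methylated or not. The tumors came from NIC-5231, a mouse mammary tumor cell line driven by ErbB2, implanted into mammary fat pads of NSG hosts, which were 5 to 7 weeks old and lack a working immune system. Groups of 5 mice were injected every 2 days with vehicle (the DMSO group), with C29 at 10 mg/kg, an inhibitor of the nuclear receptor ERRα, with 5-azadC (decitabine) at 1 mg/kg, which blocks DNA methyltransferases, or with C29+5-azadC at the same doses. Each group has 2 libraries, and each library holds the pooled DNA of 2 mice. The logistic test of reads, which gives the calls below, measures the counting error of reads and not the spread between such pools. Only the F test, limma and edgeR use that spread. Tumor and host are both mouse, and DNA of host cells in the tumor cannot be told apart from tumor cell DNA.

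Epithelial cells are held to their neighbours by E-cadherin, the product of Cdh1. In the epithelial-mesenchymal transition, factors of the Snai, Zeb and Twist families repress Cdh1 and other epithelial genes, while N-cadherin and vimentin, the products of Cdh2 and Vim, are made instead, and mammary tumor cells can move along this range in either direction. CpG-rich start sites are usually unmethylated, a methylated start site commonly goes with a silent gene, and the bodies of genes are usually methylated.

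Read counts summed over cytosines came to 70189663 and 70726729 in the vehicle libraries, 69771155 and 73270741 with C29, 63825030 and 81174026 with 5-azadC, and 57883729 and 51305736 with both drugs. The median cytosine had 21 to 30 reads. The 10 genes were read in parts: the start-site region, meaning cytosines within 1000 bp of the start of any protein-coding transcript, held 311 cytosines in all 10 genes. The body, meaning the rest of the gene, held 120 cytosines in 8 genes, and had none kept in Snai2 and Twist1. The remaining 15 lay farther upstream of Twist1 and Twist2. A region's methylation is the share of methylated reads over its cytosines, and the 95% Wilson intervals given below cover counting error only, because PCR copies of a molecule were not marked. Where a library had 0 methylated reads, the upper limit given is not a Wilson bound but the share that 3 reads of its total would make. Positions in bp count from the gene's 5′ end, with a minus sign for upstream, and coordinates are on GRCm38.

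In vehicle tumors the start sites of these genes were mostly low in methylation and their bodies mostly high. The mean of the vehicle libraries was below 10% at the start-site region of 8 of the 10 genes, against 68.2% of the 13916 genes with a measured start-site region. The median of the 10 was 7.39%, beside 1.06% for all genes. Twist1 (0.632%) and Zeb1 (0.835%) were lowest, followed by Cdh2 (2.44%) and Vim (4.07%). Cdh1 (7.15%), Epcam (7.63%), Zeb2 (7.70%) and Twist2 (9.08%) came next, and Snai2 (10.8%) and Snai1 (10.9%) were highest. In that order the neighbours from Cdh1 to Snai1 had overlapping vehicle values. The 8 bodies had a median of 76.4%, beside 78.4% over the bodies of 12332 genes. Of the 446 cytosines, 283 had a vehicle mean below 10%, 91 above 70%, and 72 between.

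**Figure D1:**
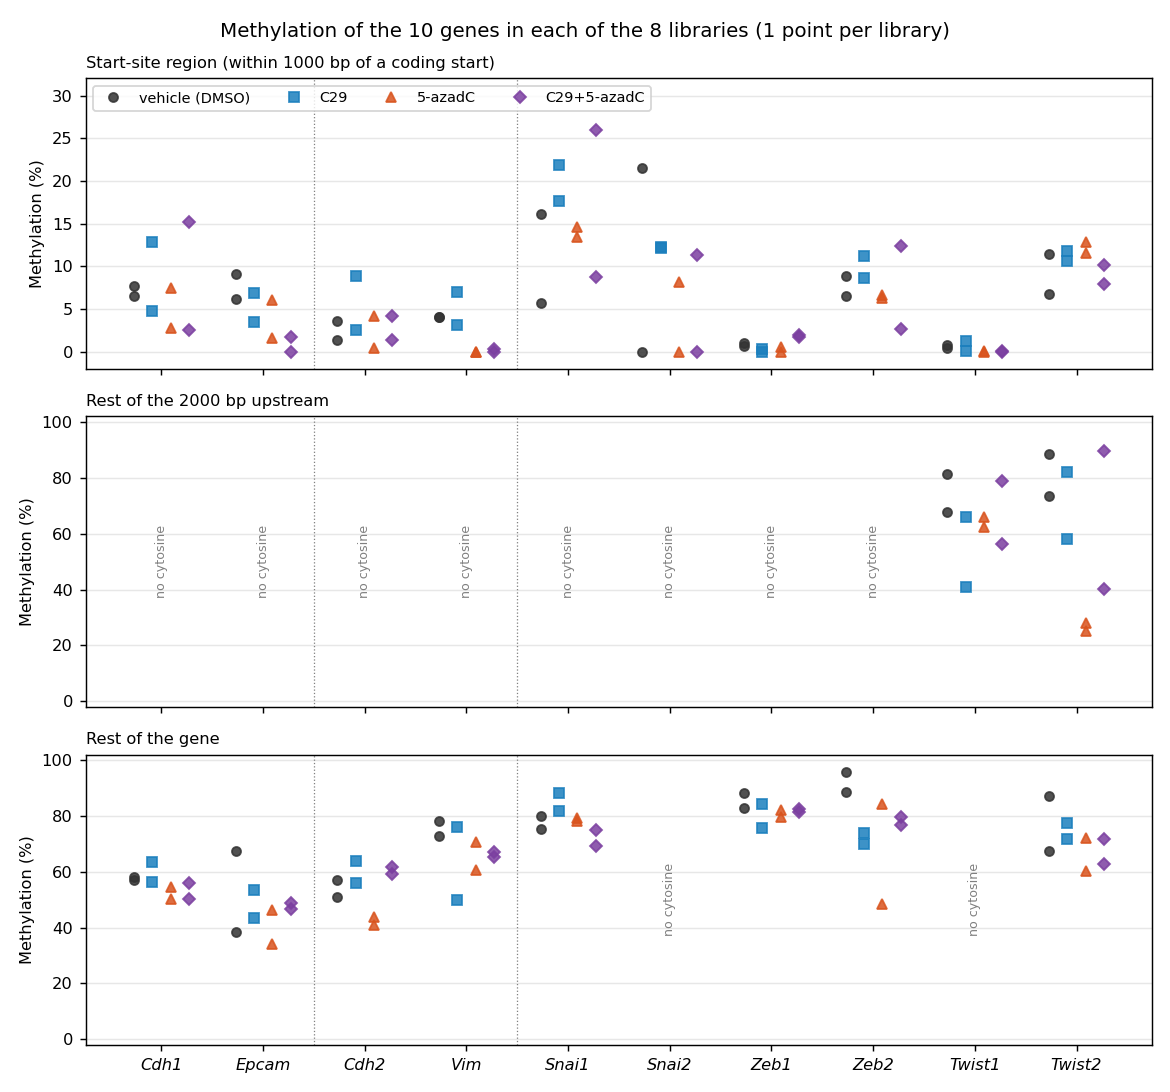
Percent methylation of the start-site region, the upstream part and the body of each gene, with 1 point per library and the 4 treatments side by side. Start-site regions lie between 0% and 26.0%, on a shorter axis than the other panels, while bodies lie between 34.2% and 95.7%.

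Cdh1 (chr8:106603351-106670246, + strand) encodes E-cadherin, the adhesion molecule whose loss defines the mesenchymal state. Its start-site region (16 cytosines, 231 to 792 reads per library) was at 7.71% and 6.58% with vehicle, 4.76% and 12.9% with C29, 2.81% and 7.45% with 5-azadC, and 2.58% and 15.2% with both drugs. The highest value was in the shallowest library (15.2%, interval 11.1% to 20.3%), its partner under both drugs was the lowest, and every treated group overlapped or surrounded the vehicle pair. Most of it came from 1 cytosine at −788 bp. That cytosine was at 63.9% and 84.6% with vehicle, 100% and 74.2% with C29, 48.9% and 78.7% with 5-azadC, and 14.3% and 100% with both drugs, on 21 to 84 reads. The 12 cytosines from 87 to 259 bp, in exon 1 and intron 1, were at 0% in 6 libraries, at 3.95% in C29 library 2 and at 0.301% in the first library with both drugs.

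The body of Cdh1 (30 cytosines, 1369 to 2480 reads) was at 57.1% and 58.1% with vehicle, 56.4% and 63.5% with C29, 50.3% and 54.6% with 5-azadC, and 55.9% and 50.4% with both drugs. All 4 libraries with 5-azadC lay below all 4 without it, by a narrow margin between 55.9% and 56.4%. The coding exon 3 (4 cytosines) was at 100% and 99.5% with vehicle, 93.2% and 95.5% with C29, 69.0% and 90% with 5-azadC, and 81.4% and 88.2% with both drugs. The coding exon 9 (6 cytosines) stayed between 89.4% and 99.3% in every library. Within intron 3, the cytosine at 106651008 was at 100% in all 4 libraries without 5-azadC, at 43.9% and 75.7% with 5-azadC, and at 76.6% and 69.0% with both drugs. It was called lower with 5-azadC (−41.4 points, q = 8.2e-16) and with both drugs (−25.7 points, q = 3.3e-09), where a call asks for q below 0.01 in the logistic test of reads and a difference of at least 25 points. Leaving out 5-azadC library 1 (−24.3 points) or the second library with both drugs (−23.4 points) ended the call in its comparison.

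In a short part of intron 2 the C29 libraries lay above the 6 others when its cytosines were summed. The 3 cytosines from 7809 to 7910 bp were at 0.606% and 0% with vehicle, 50% and 31.4% with C29, 0.476% and 11.4% with 5-azadC, and 0% in both libraries with both drugs, on 118 to 215 reads. The cytosine at 106611261, on the − strand, was at 65.2% and 41.5% with C29 and at 0% in the other 6 libraries (50.6 points above vehicle, q = 2.6e-25, 25 to 106 reads). A neighbour at 106611160 was also called higher, by 33.9 points, but not without C29 library 1 (19.6 points). There 5-azadC library 2, at 32.4%, was above C29 library 2, at 20.4%. Both libraries that held C29 together with 5-azadC were at 0% here, so the value with C29 was not seen when the other drug was present. The stretch is printed because it holds both calls (chr8:106611151-106611271, + strand, from the RefSeq genome GRCm38.p6), in lower case with capitals at each CpG in which a cytosine was kept, as in all sequences that follow.
Cdh1 intron 2: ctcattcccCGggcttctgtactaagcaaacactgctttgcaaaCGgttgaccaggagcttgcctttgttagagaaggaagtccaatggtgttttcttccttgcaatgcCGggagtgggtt
A cytosine farther into intron 2, at 106635888, was at 8.33% and 17.1% with vehicle, 51.7% and 45.8% with C29, 32.3% and 6.52% with 5-azadC, and 0% in both libraries with both drugs, and was called higher with C29 (34.1 points, q = 1.2e-06, 10 to 76 reads). Its neighbour on the same strand at 106635883 had the same C29 values but 62.5% and 0% with vehicle, which overlap them, and the pair summed was at 35.4% and 8.44% with vehicle. Elsewhere in intron 2 both C29 libraries lay below both vehicle libraries. From 106616439 to 106616446 the values were 23.4% and 46.6% with vehicle and 20.7% and 11.1% with C29. From 106637860 to 106637884 they were 100% in both vehicle libraries and 92.5% and 92.9% with C29.

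Epcam (chr17:87635979-87651129, + strand) encodes a membrane protein of epithelial cells that is used as a marker of carcinoma cells. Its start-site region (14 cytosines, 329 to 764 reads) was at 9.07% and 6.19% with vehicle, 6.87% and 3.53% with C29, 6.08% and 1.57% with 5-azadC, and 1.75% and 0% with both drugs. Both libraries with 5-azadC and both with the combination lay below both vehicle libraries, and C29 overlapped vehicle. The 0% came from 0 of 690 reads, which allows up to 0.435%. In 6 of the 7 libraries with any methylation, most of it lay in the promoter stretch from −218 to −171 bp (4 cytosines, 88 to 263 reads), at 15.2% and 15.7% with vehicle, 14.3% and 2.02% with C29, 16.4% and 7.95% with 5-azadC, and 4.90% and 0% with both drugs. There C29 library 2 and both combination libraries were low, and 5-azadC library 1 was as high as vehicle. The 10 cytosines from 1166 to 1304 bp were at 4.26% in C29 library 2, where they held 22 of the 27 methylated reads, and at or below 0.415% in the other libraries. The promoter (chr17:87635729-87635978, + strand) is shown because it carries this methylated stretch.
Epcam promoter: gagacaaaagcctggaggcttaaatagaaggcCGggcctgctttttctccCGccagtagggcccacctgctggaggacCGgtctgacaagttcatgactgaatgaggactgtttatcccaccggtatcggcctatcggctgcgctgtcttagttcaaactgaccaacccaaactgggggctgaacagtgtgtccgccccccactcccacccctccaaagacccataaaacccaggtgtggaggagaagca

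The body of Epcam (23 cytosines, 679 to 1653 reads) was at 38.4% and 67.6% with vehicle, 53.6% and 43.5% with C29, 46.2% and 34.2% with 5-azadC, and 46.7% and 49.0% with both drugs. The vehicle libraries differed more from each other than any treated pair did, and all groups overlapped them. Exon 4 (8 cytosines) was at 7.02% and 0% with vehicle, 13.8% and 36.4% with C29, 23.0% and 2.92% with 5-azadC, and 0% and 21.5% with both drugs. Both C29 libraries lay above both vehicle libraries there, and the other pairs overlapped vehicle. Its cytosines at 87640504, 87640511 and 87640515 were called higher with C29 (25.9, 28.9 and 35.7 points), and all 3 calls ended without C29 library 2 (11.8, 16.9 and 22.3 points). The call at 87640504 also ended without vehicle library 2 (24.2 points), and the difference at 87640515 was 60.3 points without vehicle library 1. Exon 8 (7 cytosines) was at 89.1% and 94.9% with vehicle, 85.5% and 91.1% with C29, 58.6% and 88.8% with 5-azadC, and 80.7% and 77.2% with both drugs. In that exon the cytosine at 87646235 was at 100% in 5 libraries, at 85.5% in 5-azadC library 2, and at 0% and 56.2% with both drugs (−71.9 points, q = 1.8e-17, 15 to 69 reads).

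Cdh2 (chr18:16588877-16809246, − strand) encodes N-cadherin, the adhesion molecule of mesenchymal and neural cells. Its start-site region (52 cytosines, 1088 to 3434 reads) was at 1.32% and 3.55% with vehicle, 8.88% and 2.50% with C29, 0.487% and 4.20% with 5-azadC, and 1.38% and 4.16% with both drugs. C29 library 1 was the highest, and every group overlapped vehicle. The CpG-dense part was close to 0 in all 8 libraries: the 17 cytosines around the start (−50 to 47 bp) were at most 3.68%, and the 37 from 831 to 1040 bp, of which 5 belong to the body, at most 1.80%. The differences came from 3 cytosines between −738 and −698 bp, at 0% and 24.3% with vehicle, 52.5% and 45.8% with C29, 4.35% and 52.9% with 5-azadC, and 10.7% and 42.3% with both drugs. The cytosine at 16809984, on the − strand, was at 0% in both vehicle libraries, 66.1% and 45.8% with C29, 4.35% and 25.5% with 5-azadC, and 31.8% and 82.1% with both drugs. It was called higher with C29 (60.5 points, q = 2.0e-24) and with both drugs (60.0 points, q = 5.2e-21), and no single library decided either call.

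The body of Cdh2 (19 cytosines, 624 to 1386 reads) was at 51.1% and 56.9% with vehicle, 63.8% and 55.9% with C29, 40.9% and 43.8% with 5-azadC, and 61.9% and 59.1% with both drugs. The 5-azadC pair lay below all other libraries, and the combination pair lay above both vehicle libraries. In exon 12 (5 cytosines) the 5-azadC libraries were again lowest, at 59.0% and 66.3%, while the other 6 lay between 80.6% and 86.4%. The exon 12 cytosine at 16624782 was at 100% with vehicle, 79.2% and 100% with C29, 64.9% and 58.3% with 5-azadC, and 100% with both drugs, and was called lower with 5-azadC (−39.0 points, q = 2.1e-14). In intron 2, the cytosine at 16740678 was at 100% with vehicle, 81.5% and 0% with C29, 35.8% and 78.2% with 5-azadC, and 52.0% and 57.5% with both drugs, on 12 to 65 reads. It was called lower in all 3 comparisons (−31.2, −42.6 and −45.6 points). The call with C29 ended without C29 library 2 (−18.5 points) and was −100 points without C29 library 1, and that with 5-azadC ended without 5-azadC library 1 (−21.8 points). Summing both strands of the CpG ended the calls with C29 (0.743 points) and with both drugs (−7.59 points).

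Vim (chr2:13573927-13582826, + strand) encodes vimentin, the intermediate filament protein of mesenchymal cells. All 13 of its start-site cytosines lay in the coding part of exon 1, between 586 and 723 bp. They were at 4.11% and 4.03% with vehicle, 3.15% and 7.05% with C29, 0% in both 5-azadC libraries, and 0.281% and 0% with both drugs. All 4 libraries with 5-azadC were below all 4 without it. The 5-azadC libraries had 0 of 481 and 0 of 751 methylated reads, which allow up to 0.624% and 0.399%, and the combination had 1 of 356 (interval 0.0496% to 1.57%) and 0 of 572 (up to 0.524%). The stretch (chr2:13574507-13574657, + strand) is shown because it separated the libraries with 5-azadC from those without.
Vim exon 1: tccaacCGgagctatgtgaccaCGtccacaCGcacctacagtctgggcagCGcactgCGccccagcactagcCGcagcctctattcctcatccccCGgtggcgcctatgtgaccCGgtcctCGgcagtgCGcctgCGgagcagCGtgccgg

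The body of Vim, 10 cytosines in exon 5 (436 to 958 reads), was at 72.9% and 78.3% with vehicle, 76.2% and 49.8% with C29, 60.7% and 70.5% with 5-azadC, and 67.0% and 65.4% with both drugs. C29 library 2 was the lowest of all, its partner lay between the vehicle libraries, and the 4 libraries with 5-azadC were below both vehicle libraries. The cytosine at 13579489 was at 87.6% and 89.2% with vehicle, 96.2% and 25.4% with C29, 32.9% and 51.9% with 5-azadC, and 76.7% and 28.6% with both drugs. It was called lower with 5-azadC (−44.7 points, q = 5.6e-20). The call with both drugs (−27.1 points) ended without the second combination library (−11.8 points), became −59.9 points without the first, and ended with both strands of the CpG summed (−15.0 points).

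Snai1 (chr2:167538195-167542814, + strand) encodes Snail, a zinc finger repressor of Cdh1. Its start-site region (35 cytosines, 1504 to 3731 reads) was at 5.65% and 16.1% with vehicle, 21.9% and 17.7% with C29, 13.4% and 14.6% with 5-azadC, and 8.71% and 26.0% with both drugs. Both C29 libraries lay above both vehicle libraries, but the vehicle pair was itself 5.65% against 16.1%, and the combination pair reached from 8.71% to 26.0%. Almost all of the methylation lay in intron 1, in 12 cytosines from 281 to 381 bp, at 18.3% and 39.0% with vehicle, 35.2% and 39.0% with C29, 30.9% and 36.5% with 5-azadC, and 33.3% and 48.5% with both drugs. The promoter stretch from −158 to −116 bp (6 cytosines) had methylated reads only in vehicle library 2, at 0.980%, and the 14 cytosines from 19 to 61 bp in exon 1 were at most 2.18%. Both stretches are shown because they lie close together at different levels: the promoter (chr2:167537995-167538124) and intron 1 (chr2:167538465-167538585), both + strand.
Snai1 promoter: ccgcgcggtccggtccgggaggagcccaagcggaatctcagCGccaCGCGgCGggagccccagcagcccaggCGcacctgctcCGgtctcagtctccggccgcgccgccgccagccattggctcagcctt
Snai1 intron 1: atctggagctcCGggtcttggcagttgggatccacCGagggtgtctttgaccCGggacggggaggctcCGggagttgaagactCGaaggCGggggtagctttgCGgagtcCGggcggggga
In intron 1 the cytosine at 167538533 was at 3.12% and 32.5% with vehicle, 31.0% and 25.3% with C29, 37.5% and 19.3% with 5-azadC, and 44.7% and 65.1% with both drugs, and was called higher with both drugs (43.1 points, q = 1.8e-14).

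The body of Snai1, 6 cytosines in exon 3 (270 to 568 reads), was at 80.0% and 75.2% with vehicle, 81.8% and 88.4% with C29, 79.4% and 78.2% with 5-azadC, and 74.8% and 69.4% with both drugs. C29 alone lay above vehicle and both drugs below it. The exon 3 cytosine at 167542068 was at 100% in 5 libraries, at 72.7% in C29 library 1, and at 69.8% and 51.9% with both drugs, and was called lower with both drugs (−40.2 points, q = 3.7e-13). That at 167542104 was called lower with both drugs too (−53.5 points), but not with both strands of the CpG summed (−9.94 points).

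Snai2 (chr16:14705852-14709385, + strand) encodes Slug, the close relative of Snail. Only 3 of its cytosines were kept, all in intron 1, on 86 to 228 reads per library. They were at 0% and 21.5% with vehicle, 12.3% and 12.2% with C29, 8.14% and 0% with 5-azadC, and 11.3% and 0% with both drugs. Every group overlapped the vehicle pair, the interval in 5-azadC library 1 ran from 4.0% to 15.9%, and the libraries at 0% allow up to 1.89% (vehicle), 1.86% (5-azadC) and 1.68% (both drugs).

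Zeb1 (chr18:5591860-5775467, + strand) encodes a zinc finger homeobox repressor of epithelial genes. Its start-site region (55 cytosines, 1430 to 2761 reads) was at 0.707% and 0.963% with vehicle, 0% and 0.362% with C29, 0.603% and 0% with 5-azadC, and 1.68% and 1.90% with both drugs. Each single drug lay below vehicle and the combination above it, all within 1.90%. In the first combination library all methylated reads came from 2 cytosines, at 5592566 in intron 1 (73.7% of 19 reads) and at 5591436 upstream (20.4% of 49 reads). In the second they came from 3, at 5592591 in intron 1 (57.9% of 19 reads), at 5591406 upstream (20.8% of 24 reads) and at 5593691, farther in at 1831 bp (29.8% of 57 reads). The last was also at 8.16% in vehicle library 1, and apart from that the 5 cytosines were at 0% in every other library.

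The body of Zeb1 (11 cytosines, 418 to 823 reads) was at 82.8% and 88.2% with vehicle, 84.3% and 75.7% with C29, 79.7% and 82.2% with 5-azadC, and 82.6% and 81.3% with both drugs. C29 library 2 was lowest, and the 4 libraries with 5-azadC lay between 79.7% and 82.6%, just below vehicle. In intron 1, the cytosine at 5699256 was at 100% with vehicle, 56.8% and 60.9% with C29, 64.7% and 99.1% with 5-azadC, and 79.5% and 85.7% with both drugs, and was called lower with C29 (−40.3 points, q = 4.8e-14).

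Zeb2 (chr2:44983632-45117395, − strand) encodes a relative of Zeb1 that also represses Cdh1. Its start-site region (41 cytosines around several start sites, 1489 to 2505 reads) was at 6.54% and 8.86% with vehicle, 8.60% and 11.2% with C29, 6.69% and 6.31% with 5-azadC, and 2.69% and 12.4% with both drugs. The combination libraries were the lowest and the highest, and all groups reached into or around the vehicle range. The region had 2 places with high values, and its other stretches were at most 5.31%. Among the latter, the 15 cytosines from 7337 to 7540 bp were at 3.61% and 2.41% with 5-azadC and at 0% in the other 6 libraries. A stretch from 297 to 324 bp (5 cytosines, 70 to 419 reads) was at 34.8% and 38.2% with vehicle, 28.3% and 48.3% with C29, 13.6% and 12.6% with 5-azadC, and 0% and 52.2% with both drugs. The 5-azadC libraries were close to each other and lay below both vehicle libraries, and the combination pair stood at the ends of the range. Its cytosines at 45117092 and 45117073, on the − strand, were called lower with 5-azadC (−40.9 and −37.4 points, q = 2.5e-10 and 2.8e-08). The stretch (chr2:45117065-45117105, shown on the − strand) is given because of these calls.
Zeb2 start-site stretch: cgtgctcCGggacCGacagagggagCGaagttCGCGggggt
The other place was a cytosine in intron 1, at 45112702, at 80.8% and 100% with vehicle, 58.8% and 42.7% with C29, 51.0% and 52.2% with 5-azadC, and 24.0% and 80.0% with both drugs, on 65 to 165 reads. It was called lower with C29 (−39.5 points, q = 1.1e-19), with 5-azadC (−40.8 points, q = 8.0e-19) and with both drugs (−46.3 points, q = 3.1e-21), the last not without the first combination library (−12.4 points).

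The body of Zeb2 (4 cytosines, 128 to 460 reads) was at 88.5% and 95.7% with vehicle, 70.1% and 73.9% with C29, 48.5% and 84.3% with 5-azadC, and 76.6% and 79.6% with both drugs. All 6 treated libraries lay below both vehicle libraries, and the 5-azadC pair was the widest. Pooled over the libraries of a group, the C29 group differed from vehicle by −19.8 points, the 5-azadC group by −22.6 and the combination by −14.5. None reached the 25 points a call asks for.

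Twist1 (chr12:33957671-33959829, + strand) encodes a basic helix-loop-helix factor of mesoderm and neural crest. Its start-site region, 32 cytosines in exon 1 from 298 to 513 bp (897 to 1523 reads), was at 0.446% and 0.817% with vehicle, 0.131% and 1.23% with C29, 0% and 0.0671% with 5-azadC, and 0.0813% and 0% with both drugs. All 4 libraries with 5-azadC were below all 4 without it, on a scale of about 1% (0 reads allow up to 0.221% and 0.210%). Far upstream the level was high: 11 cytosines were at 81.5% and 67.8% with vehicle, 65.9% and 40.8% with C29, 65.9% and 62.3% with 5-azadC, and 56.4% and 78.9% with both drugs. C29 and 5-azadC lay below both vehicle libraries, the combination did not, and these upstream parts were described without a test of their own. The longer upstream stretch, −1566 to −1355 bp (8 cytosines), was at 92.9% and 67.2% with vehicle, 72.5% and 39.6% with C29, 77.0% and 65.3% with 5-azadC, and 60.9% and 97.6% with both drugs. It is shown (chr12:33956101-33956321, + strand) because its level was high while that of exon 1 was low. No cytosine was kept between −1355 and 298 bp, so where the level changes was not measured.
Twist1 upstream: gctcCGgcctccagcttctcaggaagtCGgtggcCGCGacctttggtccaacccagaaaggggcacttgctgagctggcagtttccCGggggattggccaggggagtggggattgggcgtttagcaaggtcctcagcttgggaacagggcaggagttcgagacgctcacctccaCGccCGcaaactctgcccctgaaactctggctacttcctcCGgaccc

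Twist2 (chr1:91801461-91848028, + strand) encodes the closest relative of Twist1. Its start-site region (50 cytosines, 1329 to 2891 reads) was at 11.4% and 6.79% with vehicle, 10.6% and 11.8% with C29, 12.9% and 11.6% with 5-azadC, and 7.98% and 10.1% with both drugs. The 5-azadC pair lay just above vehicle, and the other groups overlapped it. Methylation stepped down toward the start: the 6 cytosines from −992 to −947 bp were between 50% and 100%, the 10 from −569 to −426 bp between 0% and 10.1%, and the 3 from −105 to −69 bp at 0% in all 8 libraries, on 30 to 126 reads. The 29 cytosines of exon 1 (106 to 306 bp) were at 6.65% and 3.21% with vehicle, 4.17% and 6.65% with C29, 6.67% and 4.98% with 5-azadC, and 0.113% and 0.660% with both drugs. In exon 1 the combination lay below the 6 other libraries.

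The part of Twist2 where 5-azadC stood farthest from vehicle was upstream, in 4 cytosines from −1723 to −1626 bp (122 to 289 reads). They were at 88.6% and 73.5% with vehicle, 82.0% and 58.1% with C29, 25.3% and 27.9% with 5-azadC, and 40.3% and 89.5% with both drugs. Both 5-azadC libraries lay far below vehicle (pooled difference −55.1 points, widest interval 20.7% to 36.4%), and the combination pair spanned the vehicle values. The cytosine at 91799799, on the − strand, was at 79.3% and 73.9% with vehicle and 0% in both 5-azadC libraries, but at 42.6% and 100% with both drugs, and was called lower with 5-azadC (−76.9 points, q = 2.8e-31). Its neighbour on the same strand at 91799835 was called too (−59.1 points, q = 3.0e-16), and so was 91799777 on the + strand (−57.2 points), the latter not without 5-azadC library 2 (−33.3 points, with q above 0.01). The upstream stretch (chr1:91799731-91799841) is shown beside the unmethylated promoter stretch (chr1:91801351-91801401), both + strand.
Twist2 upstream: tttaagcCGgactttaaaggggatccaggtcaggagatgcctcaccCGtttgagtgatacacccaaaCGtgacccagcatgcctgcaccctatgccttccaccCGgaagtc
Twist2 promoter: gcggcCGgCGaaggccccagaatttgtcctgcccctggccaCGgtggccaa

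The body of Twist2 (17 cytosines, 627 to 1614 reads) was at 87.0% and 67.3% with vehicle, 77.4% and 71.6% with C29, 60.3% and 72.1% with 5-azadC, and 62.8% and 71.9% with both drugs. Every treated group overlapped the vehicle range. Twist2 also held 16 of the 23 cytosines of the 10 genes that ranged from 0% to 100% over the 8 libraries, and the others were 3 in Twist1, 2 in Cdh2 and 1 each in Epcam and Zeb1. Several of these sat side by side and were covered by the same reads. At 91800514, for example, on 11 to 37 reads, the values were 100% and 0% with vehicle, 0% and 0% with C29, 100% and 100% with 5-azadC, and 100% and 77.1% with both drugs. At 91800704 they were 13.3% and 0% with vehicle, 100% and 0% with C29, 100% and 100% with 5-azadC, and 0% in both combination libraries, and this cytosine was called higher with 5-azadC (93.8 points, q = 2.4e-13, 10 to 33 reads).

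**Figure D2:**
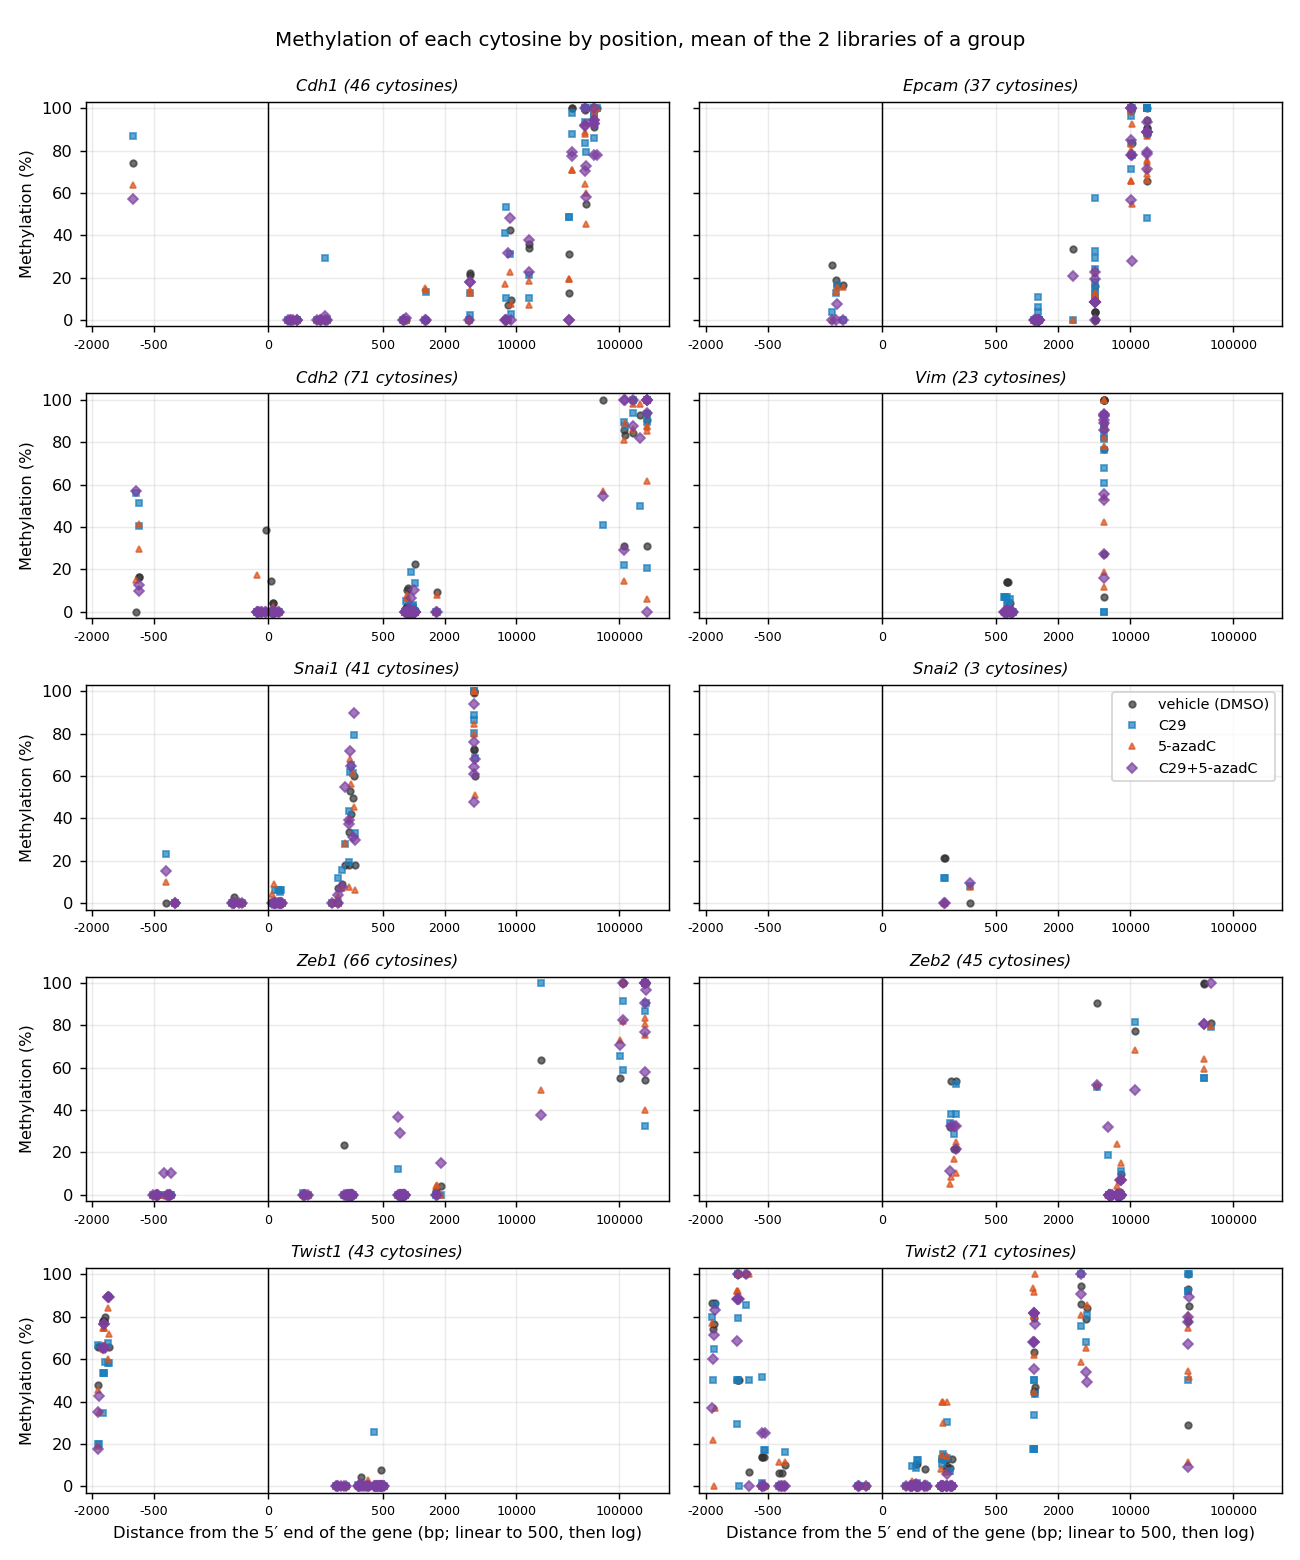
Percent methylation of each kept cytosine against its distance in bp from the gene start, with 1 panel per gene and each symbol the mean of a treatment's 2 libraries. Cytosines near the start sit close to 0% in most panels, and those farther into the gene or upstream reach up to 100%.

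**Figure D3:**
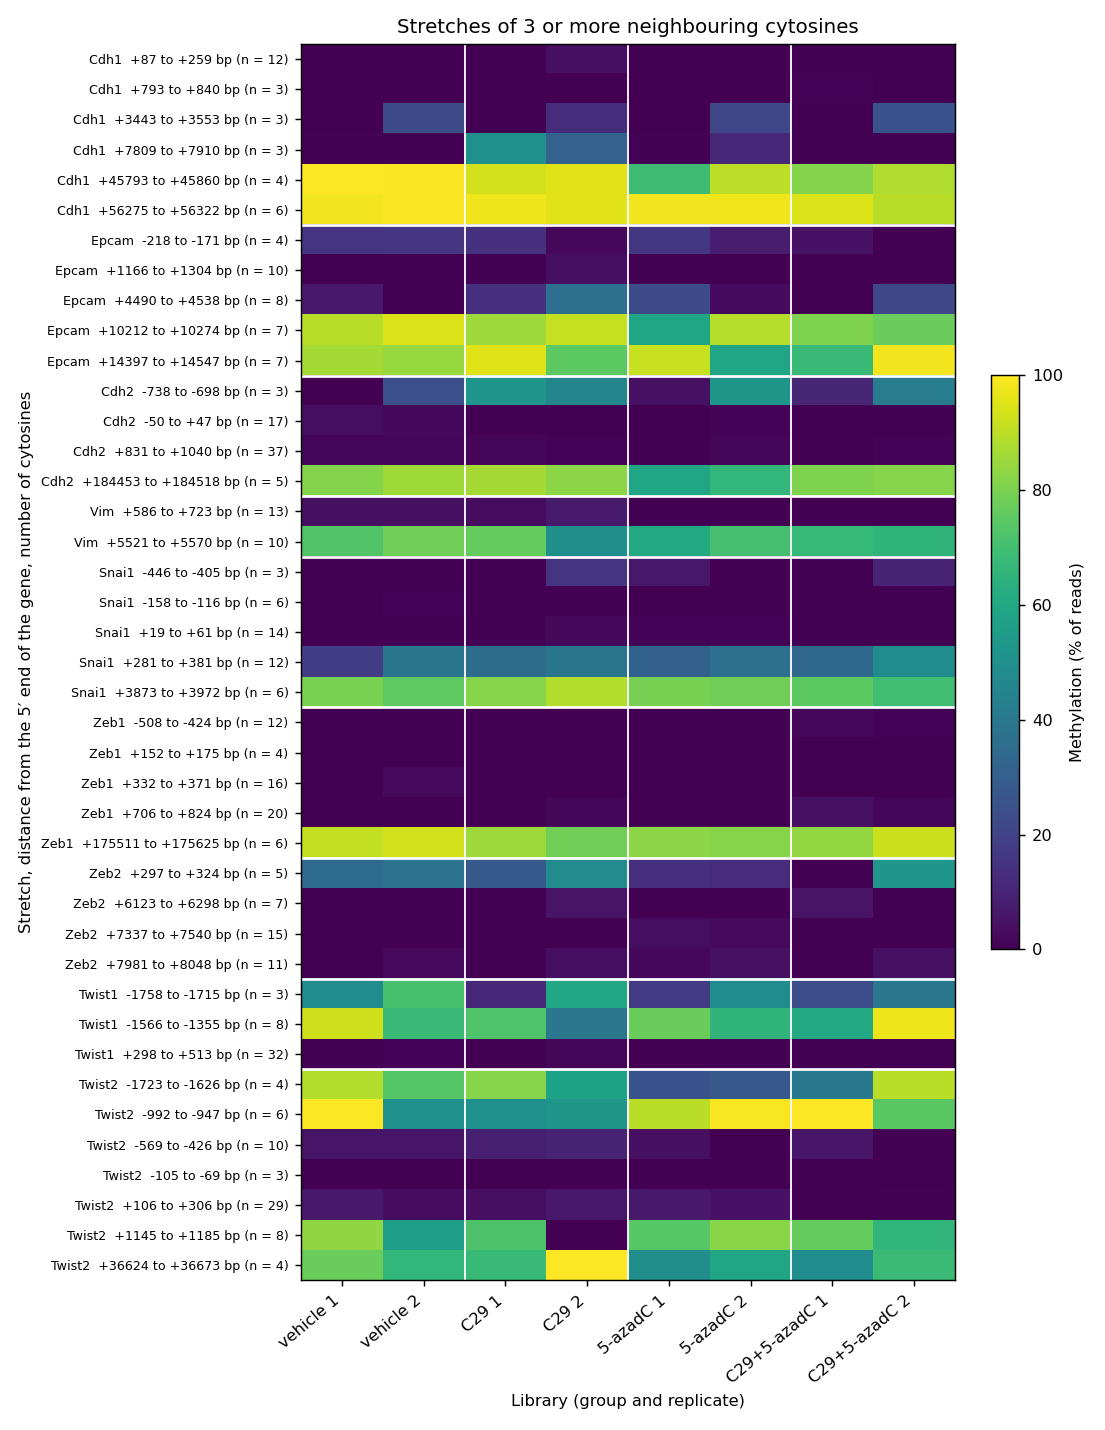
Percent methylation (color) of the 41 stretches of 3 or more neighbouring cytosines (lines of the map) in each of the 8 libraries (columns). Vim exon 1 is at or below 0.281% in all 4 libraries with 5-azadC, Cdh1 intron 2 is at 50% and 31.4% with C29, and the upstream stretch of Twist2 is at 25.3% and 27.9% with 5-azadC alone.

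A table of promoter sequences (250 bases before to 50 after a start, from RefSeq, GRCm38.p6) held 9 sequences of 6 members, and Cdh1, Cdh2, Snai2 and Zeb1 were not in it. The letters CACCTG or CAGGTG, the E-box form that Snai and Zeb proteins bind, were searched on both strands, which for this pair is the same search. Epcam had 2 matches, with first bases at −187 and −19 bp, Snai1 had 1 at −126 bp, and Twist1, Twist2, Vim and Zeb2 had 0. Of all 32851 promoters, 6640 (20.2%) had a match. The match of Epcam at −187 bp lay within its partly methylated stretch, and that of Snai1 within its unmethylated one, and both can be read in the sequences above. The start sites also differ in how many CpGs they hold: within 500 bp on either side of the start there were 114 CpGs at Zeb1 and Twist1, 109 at Cdh2, 90 at Twist2, 86 at Snai1, 67 at Cdh1, 51 at Snai2 and Zeb2, 40 at Vim and 31 at Epcam, beside a median of 41 over all genes.

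Did the start sites of these genes differ from vehicle after each treatment? All 3 comparisons use the same vehicle libraries, so they are not independent of each other. In the logistic test of summed reads, C29 had 0 of the 10 start-site regions called, 5-azadC 0 and the combination 0, where 2.07%, 2.50% and 2.63% of all start-site regions were called. At an unadjusted p below 0.05 the logistic test had 6, 10 and 7 of the 10, beside 59.0%, 60.3% and 58.2% of all regions. An F test that corrects for the spread between libraries also called 0, and had 0, 1 and 1 at an unadjusted p below 0.05, against 4.38%, 4.72% and 4.46% of all regions. The 1 was Vim in both (adjusted q = 0.821 with 5-azadC and 0.846 with both drugs). The one call under another setting was Cdh1 with both drugs at a minimum of 20 reads (−32.4 points, beside 2.40% of all regions called). There the region was reduced to the 1 cytosine at −788 bp, whose values with both drugs, 14.3% and 100%, lay on either side of the vehicle pair. An exact permutation test of 2 libraries against 2 cannot go below p = 0.333.

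Setting all 4 libraries with 5-azadC against the 4 without, with C29 as a covariate, gave a test that uses the spread between libraries. limma called 0 of the 10 start-site regions after adjustment (0% of all regions), and edgeR also called 0 (0%). At an unadjusted p below 0.05 limma had 3 of the 10, beside 5.42% of all regions, and edgeR had 2, beside 3.33%. The limma 3 were Vim (−4.52 points, adjusted p = 0.627, lower in 4 of 4 libraries), Twist1 (−0.620 points, adjusted p = 0.804, lower in 4 of 4) and Epcam (−4.07 points, adjusted p = 0.804). The edgeR 2 were Vim and Twist1, with an adjusted p = 0.979 for Vim. The estimate was below 0 in 7 of the 10, beside 55.1% of all regions. None of these differences passed the correction for all genes.

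For C29, 4 libraries against 4, limma called 0 of the 10 start-site regions (0% of all) and had 0 at an unadjusted p below 0.05 (4.33% of all), and edgeR had 0 of both (0% and 3.39% of all). The largest estimate was Snai1, 6.13 points higher with C29 (adjusted p = 0.837 by limma). Whether the combination differed from the sum of both drugs was tested as an interaction. limma called 0 of the 10 (0% of all), with 1 at an unadjusted p below 0.05 beside 6.13% of all regions, and edgeR had 0 of both (0% and 2.80% of all). The 1 was Zeb1, with an interaction of 2.14 points (adjusted p = 0.358 by limma), where the combination values rest on the 5 cytosines named above. The estimate was below 0 in 7 of the 10, beside 44.0% of all regions.

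**Figure D4:**
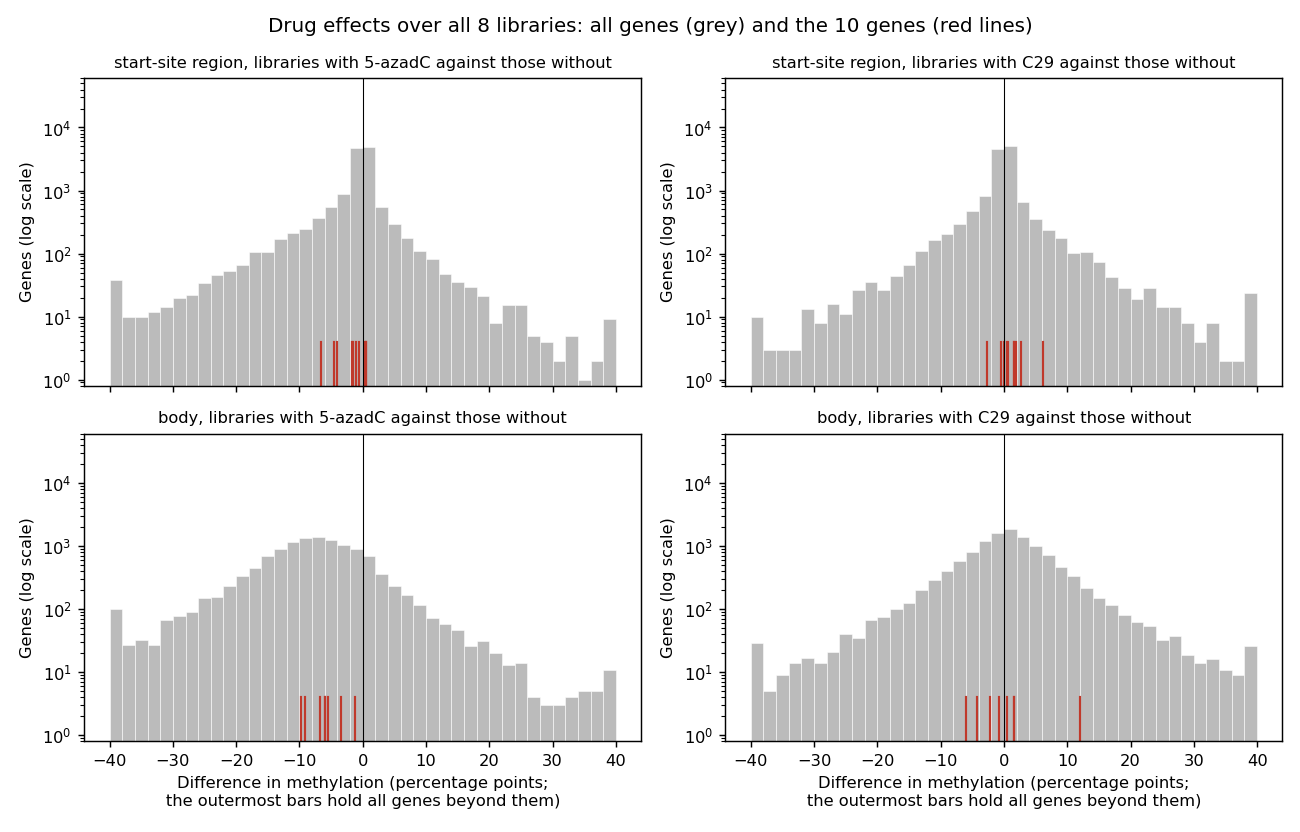
Distribution over all genes of the difference in percentage points between libraries with and without each drug (logarithmic count axis, the outermost bars holding all genes beyond), with the 10 genes marked. Vim lies at −4.52 points for 5-azadC at the start site, and the 8 measured bodies all lie below 0 for 5-azadC, as do 84.7% of all bodies.

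In gene bodies the logistic test called 0 of 8 members in each of the 3 comparisons, where C29, 5-azadC and the combination had 4.36%, 9.03% and 7.58% of all bodies called. At an unadjusted p below 0.05 it had 8, 7 and 7 of the 8 (63.6%, 79.4% and 74.3% of all bodies), and the F test had 0, 0 and 0 (4.6%, 12.2% and 9.79% of all bodies) and called 0. With C29 and with 5-azadC the counts of 0 depended on single libraries. With C29, Vim was called without C29 library 1 (−25.6 points, beside 7.56% of all bodies called). With 5-azadC, Zeb2 (−25.7 points) and Epcam (−29.3 points) were called without vehicle library 1 (12.4% of all), and Zeb2 (−44.1 points) without 5-azadC library 2 (14.5% of all). With both drugs the count was 0 without any 1 library, and Zeb2 was called where the start-site region was limited to 500 bp (−25.1 points, 6.75% of all). A minimum difference of 10 points in place of 25 gave 2 members with C29 (Vim, Zeb2), 4 with 5-azadC (Twist2, Zeb2, Epcam, Cdh2) and 2 with both drugs (Twist2, Zeb2), all lower than vehicle, beside 22.8%, 47.4% and 40.2% of all bodies.

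Over all 8 libraries no body of these genes passed the test for 5-azadC. The limma estimate was below 0 in 8 of 8, beside 84.7% of all bodies, with a median of −5.95 points beside −7.54 over all. The estimates ran from −1.28 points for Zeb1 to −9.81 for Zeb2 and −9.08 for Twist2. limma called 0 of the 8 after adjustment (0.00811% of all bodies) and had 0 at an unadjusted p below 0.05 (23.5% of all), and edgeR called 0 of the 8 (1.68% of all) and had 0 at an unadjusted p below 0.05 (21.4% of all). With C29, limma called 0 (0% of all) and had 1 at an unadjusted p below 0.05 (5.17% of all). This was Cdh2, 12 points higher with C29 (adjusted p = 0.921 by limma). That estimate joins 2 unlike contrasts. C29 alone (63.8% and 55.9%) overlapped vehicle (51.1% and 56.9%). Both drugs (61.9% and 59.1%) lay above 5-azadC alone (40.9% and 43.8%). edgeR also had 1 member at an unadjusted p below 0.05 (3.58% of all) and called 0 (0% of all). The interaction test of bodies called 0 of 8 (0% of all) and had 0 at an unadjusted p below 0.05 by limma, beside 6.24% of all bodies.

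Single cytosines of these genes were called in all 3 comparisons, in both directions. With C29 the logistic test called 36 of 446 (8.07%, 15 higher and 21 lower), beside 10.7% of all cytosines. With 5-azadC it called 35 (7.85%, 7 higher and 28 lower), beside 13.2%, and with both drugs 35 (7.85%, 11 higher and 24 lower), beside 13.6%. No test compared these shares with those of all cytosines, and neighbouring cytosines share reads. Calls in which the treated libraries did not overlap vehicle numbered 20, 20 and 14 (4.48%, 4.48% and 3.14%), beside 6.39%, 8.45% and 7.94% of all cytosines. Of all calls, with or without overlap, 21, 28 and 24 were lower, beside 5.96%, 10.0% and 9.55% of all. Twist2 held 12, 12 and 9 of the calls on its 71 cytosines, Snai2 held 0 on 3, and Snai1, with 41, held 5 with both drugs and 0 with either drug alone. A cytosine called without overlap in all 3 comparisons was found in Cdh2 (16740678) and in Zeb2 (45112702).

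These counts follow the counting error of reads, not the spread between libraries. The F test called 0 member cytosines in each comparison, and had 6, 8 and 8 at an unadjusted p below 0.05 (2.37%, 3.58% and 2.99% of all), while the logistic test had 157, 141 and 137 (34.7%, 38.5% and 36.6% of all). limma over all 8 libraries called 0 for either drug (0% of all), with 8 of 446 at an unadjusted p below 0.05 for 5-azadC (3.68% of all) and 8 for C29 (2.25% of all). Among these was the Cdh1 cytosine at 106651008 (−33.7 points with 5-azadC, adjusted p = 0.99 by limma, lower in 4 of 4 libraries). The logistic count moved to 65 with C29 without C29 library 1 (14.6%, beside 14.4% of all) and to 53 with 5-azadC without vehicle library 2 (11.9%, beside 15.8%). With both drugs it moved to 54 without vehicle library 2 (12.1%, beside 15.9%) and to 59 without the second combination library (13.2%, beside 17.3%). A minimum of 20 reads left 15, 15 and 14 calls of 149 member cytosines (10.1%, 10.1% and 9.40%, beside 8.56%, 11.3% and 11.5% of all). A minimum of 5 reads gave 62 of 598 with C29 (10.4%, beside 11.2%) and 54 with 5-azadC (9.03%, beside 13.5%). A minimum difference of 10 points gave 90, 86 and 93 of 446 (20.2%, 19.3% and 20.9%, beside 22.8%, 27.0% and 25.9%). Libraries of 1 group were at least 25 points apart at 72 member cytosines in vehicle tumors, 73 under C29, 61 under 5-azadC and 68 under the combination (16.1%, 16.4%, 13.7% and 15.2%, beside 17.6%, 18.1%, 20.4% and 22.4% of all cytosines). Group means were that far from the vehicle mean at 36, 42 and 33 (8.07%, 9.42% and 7.40%, beside 11.8%, 14.3% and 14.5% of all).

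Other genes of the same programs were taken from lists. Among epithelial junction and keratin genes, 24 of 29 had a measured start-site region, with a vehicle median of 0.930%. Muc1 (100%, 1 cytosine), Krt5 (86.7%), Cldn4 (19.7%) and Cdh3 (18%) were the highest of them. In epithelial regulators (13 of 22 measured) the median was 0.324% and the highest was Ovol1 at 4.50%. Mesenchymal matrix and cytoskeleton genes (20 of 29) had a median of 18.5%, with Tagln at 75.0%, Mmp2 at 65.4% and Lox at 54.1%. In mesenchymal regulators and the TGF-beta pathway (31 of 34) the median was 1.57%, with Axl at 61.2% and Foxc2 at 57.5%. All genes had a median of 1.06%, so of these lists the matrix and cytoskeleton genes had the highest median in vehicle tumors. The highest single start sites, Muc1 and Krt5, were in the junction and keratin list, and the lists were not compared by a test.

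**Figure D5:**
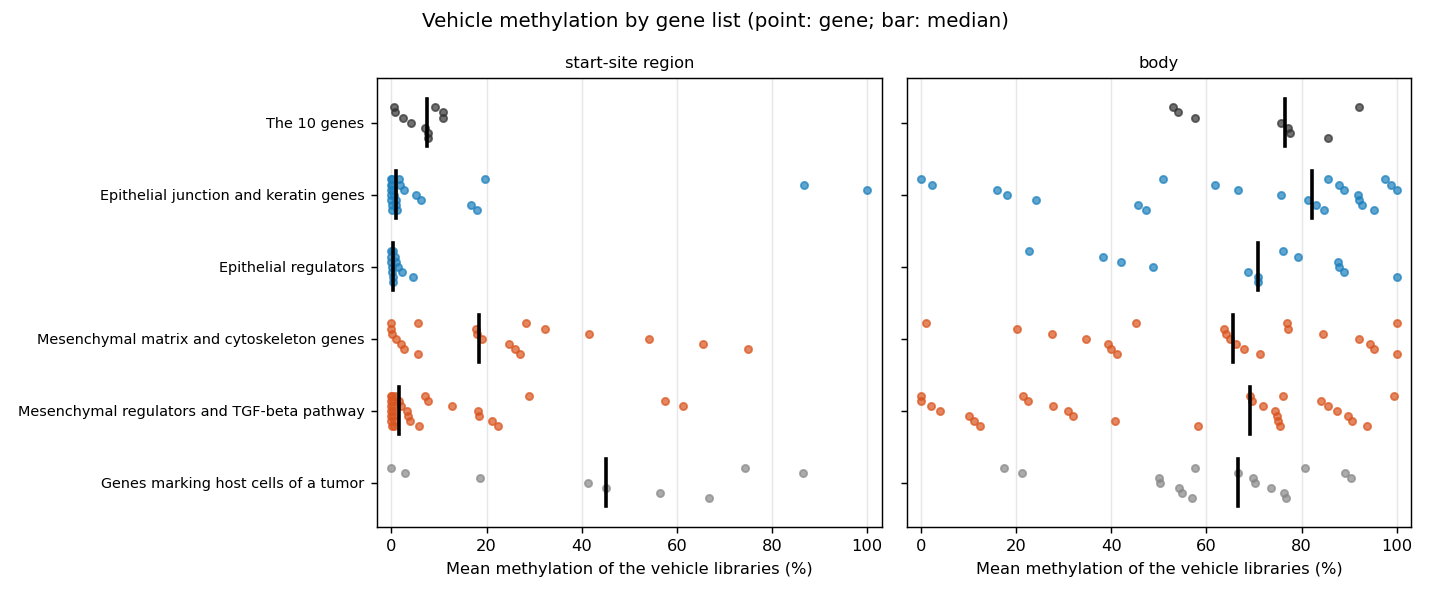
Vehicle methylation of the start-site region and the body of each gene in the 10 genes and the 5 other lists, with 1 point per gene and a bar at the list's median. At the start site the matrix and cytoskeleton genes (median 18.5%) and the host-cell markers (45.1%) lie above the other lists and above all genes (1.06%).

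In the 4 epithelial and mesenchymal lists few start sites were called, as were few of all start-site regions (2.07%, 2.50% and 2.63%). They were 0 with C29, 1 junction gene lower with 5-azadC, and 1 matrix gene higher with both drugs. The junction gene was Krt5 (−26.6 points, 2 cytosines), which is named above for its vehicle level. The naming rule for called genes does not cover it, and its difference was picked after its values were seen. The matrix gene was Col1a2, which encodes a chain of type I collagen. Its 4 cytosines were at 28.4% and 21% with vehicle, 19.4% and 11.2% with C29, 23.3% and 34.7% with 5-azadC, and 57.6% and 56.8% with both drugs (33.6 points above vehicle, q = 1.4e-22). The combination pair lay above the 6 other libraries.

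In the bodies of the same lists the shares called can be read beside 4.36%, 9.03% and 7.58% of all bodies for C29, 5-azadC and both drugs. Of junction and keratin genes 0 of 24 were called with C29, 3 with 5-azadC, all lower, and 6 with both drugs, of which 5 were lower. In epithelial regulators 3 of 13 were called with C29 (1 higher, 2 lower), 3 with 5-azadC and 2 with both drugs, all lower for the latter treatments. Matrix and cytoskeleton genes had 0, 2 and 3 of 22, all lower, and mesenchymal regulators had 0, 1 and 0 of 29. Calls on fewer than 3 cytosines included Ovol1 (63.0 points with C29 and −37.0 with 5-azadC) and Acta2 (−54.5 points with 5-azadC and −33.0 with both drugs), genes picked after their values were seen. Over all 8 libraries limma had, for 5-azadC at an unadjusted p below 0.05, 9 of 24, 4 of 13, 4 of 22 and 4 of 29 in the same order of lists, beside 23.5% of all bodies, and called 0 after adjustment.

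Among the bodies in these 4 lists that were called on 3 or more cytosines, Ovol2, a repressor of mesenchymal genes, had the largest difference. Its body (5 cytosines, 81 to 139 reads) was at 100% and 100% with vehicle, 56.4% and 39.6% with C29, 84.5% and 78.9% with 5-azadC, and 100% and 100% with both drugs (−51.8 points with C29, q = 1.1e-34). Only C29 given alone was far below vehicle. The call ended where other borders of the start-site region were used (−6.81 points within 500 bp, −3.38 points from 2000 bp upstream to 500 bp downstream), which add other cytosines to the body. Klf5, an epithelial zinc finger factor, was at 76.2% and 65.5% with vehicle, 26.6% and 62.2% with C29, 31.9% and 43.8% with 5-azadC, and 10.5% and 47.0% with both drugs in 3 body cytosines. All treated libraries were below vehicle, and Klf5 was called in all 3 comparisons (−31.9, −34.3 and −41.7 points). Without C29 library 1 the difference with C29 was −9.11 points, without the first combination library that with both drugs was −24.3, and both calls ended. A minimum of 20 reads ended the call with 5-azadC (−24.0 points), and a start-site region from 2000 bp upstream to 500 bp downstream of the gene start, which leaves other cytosines in the body, ended all 3 (−1.73, −1.26 and −1.58 points).

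Of the 5 junction and keratin genes called lower in the body with both drugs, F11r (−25.5 points) and Cldn4 (−32.6 points) had fewer than 3 cytosines and are named after their values were seen. The other 3 follow. The keratin gene Krt19 (4 cytosines) was at 68.7% and 54.7% with vehicle, 32.7% and 48.5% with C29, 70.6% and 71.6% with 5-azadC, and 30.0% and 24.1% with both drugs (−33.3 points, q = 1.5e-20), and the call ended with both strands of a CpG summed (−17.4 points). The tight junction gene Marveld3 (3 cytosines) was at 83.8% and 100% with vehicle, 100% and 80.6% with C29, 89.6% and 48.9% with 5-azadC, and 63.4% and 54.7% with both drugs (−31.5 points, q = 2.5e-10), and its call ended without vehicle library 2 (−23.5 points) and with other borders of the start-site region (−0.302 points). The keratin gene Krt8 (4 cytosines) was at 47.8% and 43.7% with vehicle, 7.73% and 53.2% with C29, 43.7% and 19.8% with 5-azadC, and 22.2% and 12.7% with both drugs (−28.6 points, q = 2.0e-15). In all 3 the combination pair lay below the vehicle pair, but genes were named only if their pairs did not overlap, so this was set by the choice. Krt8 was no longer called without the second combination library (−23.3 points), at 5 reads (−1.16 points), at 20 reads (0 points) or with strands summed (−15.7 points). Of Ovol2, Klf5, Krt19, Marveld3, Krt8, Col1a2 and the host-cell gene Des, none was called by the F test, and their limma adjusted p-values ran from 0.181 to 0.967.

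Genes that mark host cells of a tumor, from stroma, vessels, leukocytes and fat, were read for the same libraries. Of 25 listed, 9 had a measured start-site region, with a vehicle median of 45.1%, and 16 had none, among them Ptprc, Pecam1 and Dcn. The median over the 9 was 50.6% and 39.5% with vehicle, 35.7% and 29.7% with C29, 34.9% and 40.3% with 5-azadC, and 43.5% and 37.8% with both drugs. The C29 pair was below both vehicle libraries, and the other groups overlapped vehicle. Cd34 (86.6%) and Spi1 (74.3%) were highest in vehicle. Des, which encodes the muscle and pericyte filament desmin, was at 60.0% and 52.8% with vehicle, 24.1% and 18.3% with C29, 34.9% and 13.3% with 5-azadC, and 24.3% and 37.8% with both drugs. It was called lower with C29 (−34.9 points) and with 5-azadC (−31.3 points), the latter not without 5-azadC library 2 (−20.4 points), and neither with both strands of a CpG summed (−14.9 and −17.6 points). In all, 2 of the 9 were called with C29 (Des lower, Spi1 higher), 1 with 5-azadC (Des) and 1 with both drugs (Spi1, higher), where Spi1 overlapped vehicle and is named after its values were seen. Of all start-site regions 2.07%, 2.50% and 2.63% were called. The logistic test called 0 of 17 host-marker bodies in any comparison, beside 4.36%, 9.03% and 7.58% of all bodies. The share of host cells in each library was not measured, and its part in the results for the 10 genes was not tested.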

How the data were processed

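RRBS libraries of 8 pooled tumor DNA samples were analysed, 2 in each of 4 groups. The authors aligned trimmed reads to the mouse genome and deposited, for each cytosine, a methylated fraction and a read count (coverage). The submitters' processing notes name FastQC 0.11.8, Trim Galore 0.4.1, Bismark 0.20.0 and methylKit 1.7.0, with mm10 (GRCm38). Methylated reads were recovered as fraction times coverage. Spike-in controls were methylated at 0.216% to 0.329% (unmethylated control) and 97.5% to 98.3% (methylated control). Cytosines needed 10 reads in all 8 libraries and coverage outside the highest 0.100% of any library. Each treatment was compared with vehicle with methylKit's default test, a likelihood ratio from a logistic model of reads (q below 0.01 by Benjamini-Hochberg over all features, difference of at least 25 points). An F test corrected for overdispersion. All 8 libraries were fitted with limma 3.58.1 on percent methylation (adjusted p below 0.05), with edgeR 4.0.16 on methylated and unmethylated read counts as an alternative, in R 4.3.3. The interaction test of gene bodies was added after values were seen. Other tools were Python 3.11.15, NumPy 2.4.6, SciPy 1.17.1, pandas 2.3.3, matplotlib 3.10.9 and pyfaidx 0.9.0.4. The tests were tested on simulated data. All 10 members were named. From other lists, up to 12 called genes per comparison were named, with 3 or more cytosines and no overlap with vehicle. So were up to 5 genes per list with the highest vehicle start-site methylation. Within members, only a part of the cytosines called without overlap or of largest range is named. Among those not named are calls that ended when a library was left out, such as Zeb2 45066054 with C29. Members and lists were chosen with earlier results of these data known. Alternatives were coverage minimum, region borders, strand summing, difference, test, a replicate block and leaving out each library.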

Additional observations from a re-analysis of the deposited data

Results flagged for a closer look

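In the body of Zeb2, 5-azadC went with lower methylation when given alone and with higher methylation when given with C29. The libraries were at 88.5% and 95.7% with vehicle, 48.5% and 84.3% with 5-azadC, 70.1% and 73.9% with C29, and 76.6% and 79.6% with both drugs. A body was flagged only for this pattern: pairs without overlap, in opposite directions without and with the other drug. The opposite directions were therefore set by the choice, here and in Snai1 below. The interaction was 31.7 points (adjusted p = 0.820 by limma). It was 13.8 points without 5-azadC library 1 and 49.6 without 5-azadC library 2, and between 28.1 and 35.3 when 1 of the other libraries was left out.

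In the body of Snai1, C29 went with higher methylation when given alone and with lower methylation beside 5-azadC. The libraries were at 80.0% and 75.2% with vehicle, 81.8% and 88.4% with C29, 79.4% and 78.2% with 5-azadC, and 74.8% and 69.4% with both drugs. The interaction was −14.2 points (adjusted p = 0.799 by limma), and from −17.5 to −10.9 points with each library left out in turn. The test of gene bodies and the values without a library were added after the values were seen. Over all 12332 bodies limma had 770 at an unadjusted p below 0.05 (6.24%) and 0 after adjustment, and among the members it had 0 of 8 at either threshold.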

How the results depend on the processing

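Of the alternatives for counts of members called, 23 differed by over 1.5 times, 15 of them for counts above 0, and the cause was not tested. For counts above 0 another 18 did not, and 199 were counts of 0 that were 0 again, which shows no stability. Start-site regions with both drugs had 1 call at a minimum of 20 reads, in place of 0. Gene bodies, in place of 0, had 2, 4 and 2 calls at 10 points with C29, 5-azadC and both drugs, 1 with both drugs within 500 bp, and, leaving out each library in turn, 0 to 1 with C29 and 0 to 2 with 5-azadC. Single cytosines, in place of 36, 35 and 35, were 62 with C29 and 54 with 5-azadC at 5 reads, 15, 15 and 14 at 20 reads, where fewer cytosines were tested, 90, 86 and 93 at 10 points, and 0, 0 and 0 by the F test. Leaving out each library in turn gave 46 to 65, 42 to 53 and 32 to 59. With the replicate number as a block, cytosine counts were 36, 36 and 34, all other counts were 0, and no call named was lost. The labels do not say whether libraries of the same number share a batch. The correlation of replicate differences between groups ran from −0.00456 to 0.00721 over 6 pairs of groups. It does not measure a shift that is equal at all cytosines, and a shared batch was not tested further. No call was made in the opposite direction, but summing strands turned the sign of 2 differences whose calls ended, to 0.743 points at Cdh2 16740678 with C29 and −0.825 at Twist2 91802614 with both drugs. Of the 54 calls of cytosines without overlap, the F test kept 0, summing strands ended 8 others, and all 31 that could be tested at 20 reads were kept. Leaving out a library ended 5 (vehicle library 1) and 4 (vehicle library 2) of the 54, 3 and 5 of 20 for C29, 6 and 3 of 20 for 5-azadC, and 2 and 2 of 14 for both drugs. Differences of members stayed within the spread of replicates in 1077 of the alternatives and moved beyond it in 173. At 20 reads, and with the region from 2000 bp upstream to 500 bp downstream, 9 members had a start-site region. Averaging cytosines gave no count against vehicle, only differences.

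Depth limits small regions: Snai2 rested on 3 cytosines, Zeb2's body on 4, and single cytosines on as few as 10 reads. Cytosines of a stretch share reads and are not independent. Leaving out 1 of 2 libraries leaves a lone library in a group, whose test counts reads only.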

Other observations

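The genes of the miR-200 family of microRNAs, which hold epithelial state by repressing Zeb1 and Zeb2, were read within 1000 bp of the gene's start and were covered in part. Mir141 (20 cytosines, 872 to 1513 reads) was at 21.3% and 7.31% with vehicle, 20.7% and 13.0% with C29, 3.02% and 9.98% with 5-azadC, and 7.34% and 16.6% with both drugs. Mir200c (16 cytosines, 407 to 1125 reads) was at 22.0% and 5.62% with vehicle, 21.1% and 12.4% with C29, 2.73% and 2.10% with 5-azadC, and 33.9% and 14.5% with both drugs. The 2 genes lie next to each other, and cytosines within 1000 bp of both starts count for each. For Mir200c both 5-azadC libraries were below both vehicle libraries, while the combination was not, and neither gene was tested. Of the other microRNA genes listed, Mir200a, Mir200b, Mir205 and Mir429 had 0 cytosines kept.

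Some members overlap other annotated genes, so that a cytosine can belong to both. The antisense gene Zeb2os lies over Zeb2 from 45110707 to 45114087 on chr2, Gm29100 lies antisense over the start of Twist2 from 91798528 to 91802937 on chr1, and Gm10125 reaches the start of Zeb1 on the − strand.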
